A study of Meleagris gallopavo with 24 samples.

Results

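The 5 genes best known from nerve cells, NDRG4, DCLK2, PPM1E, SYN3 and KIAA0319, were examined in the heart and liver of turkeys fed salinomycin (Sal). They were 5 of the 11587 genes in the count table, and they were chosen because their counts had differed between Sal-exposed and control birds in 1 of the tissues. Their differences between exposed and control birds are therefore given as a description, and no test of them is read as a result. The level of each gene in control heart against control liver did not choose them and was tested. It uses the same control libraries, whose values also entered the contrasts that chose the genes.

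Sal is a carboxylic ionophore given against coccidia, which carries monovalent cations across membranes and is poorly tolerated by turkeys. The birds were female turkeys (Meleagris gallopavo) bought as 1-day-old chicks and housed 4 to a pen. All of them received feed without Sal until a last feeding phase, in which the Sal-exposed group ate a diet with 21 mg Sal per kg feed, an estimated daily dose of 0.9 mg per kg body weight, and the control group kept a diet without added Sal. Heart and liver were taken in week 13 from 6 birds of each group, giving heart Sal, heart control, liver Sal and liver control libraries of whole tissue. Heart was homogenized with another reagent than liver, so tissue and homogenization cannot be told apart.

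Nerve cells grow long processes along microtubules and pass signals through vesicles that fuse at synapses. DCLK2 is a protein kinase of the doublecortin family that binds microtubules, and PPM1E is a serine/threonine phosphatase that removes phosphates from p21-activated kinases and calmodulin-dependent kinases in mammalian cells. SYN3 is a synapsin, a phosphoprotein on the surface of synaptic vesicles, and KIAA0319 is a membrane glycoprotein with PKD domains, linked in people to dyslexia and studied in rats for the migration of cortical neurons. NDRG4 belongs to the N-myc downstream-regulated family and is known from brain and heart, with a part in the growth of heart muscle described in zebrafish.

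On the Turkey_5.1 assembly, NDRG4 (ENSMGAG00000003705) lay on chromosome 13 from 10004649 to 10015163, and DCLK2 (ENSMGAG00000004074) on chromosome 4 from 12352755 to 12430452. PPM1E (ENSMGAG00000007109) lay on chromosome 21 from 8345838 to 8354185, SYN3 (ENSMGAG00000012781) on chromosome 1 from 52292893 to 52317616, and KIAA0319 (ENSMGAG00000002315) on chromosome 3 from 4593395 to 4634522. Each count covers a whole protein-coding gene model, and 0 other gene models of the table overlapped any of the 5. The symbols of DCLK2 and KIAA0319 came with the count table, and those of NDRG4, SYN3 and PPM1E from RefSeq genes at the same position.

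The libraries held 23372118 to 35979378 counts in heart and 15706646 to 31305782 in liver, except liver control 3 with 3729229 counts over 5226 genes. That library was left out of the comparisons and is shown apart. Counts of the 16 mitochondrial genes made up 48.3% to 86.9% of heart libraries and 16.7% to 46.2% of liver libraries, so levels are given as nuclear CPM, the count scaled to a total of 1000000 counts of nuclear genes. Heart Sal 1 stood apart, with 28.0% of its nuclear counts in 10 genes, against 11.9% to 17.7% in the other 11 hearts. Of the markers, 20 of 20 hepatocyte genes were higher in control liver and 18 of 18 cardiomyocyte genes were higher in control heart by edgeR's quasi-likelihood test. Enterocyte markers summed to 2849 to 26436 nuclear CPM in the 5 control livers compared and to 567.7 to 1207 in the 6 Sal livers, and much of that sum was APOA4, an apolipoprotein, at 2580 to 26188 and 252 to 898. The other 14 enterocyte markers summed to 10804 in liver control 1 and to 1881 in liver control 5. They summed to 247 to 269 in the remaining control livers compared, with a group median of 269, and to 218 to 322 in Sal livers. Up to 8 of the 15 had no count in a control liver. By the edgeR test 7 of the 10 tested were lower in Sal liver at the threshold given below, and 0 higher, against 8.36% of all genes tested either way.

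**Figure D1:**
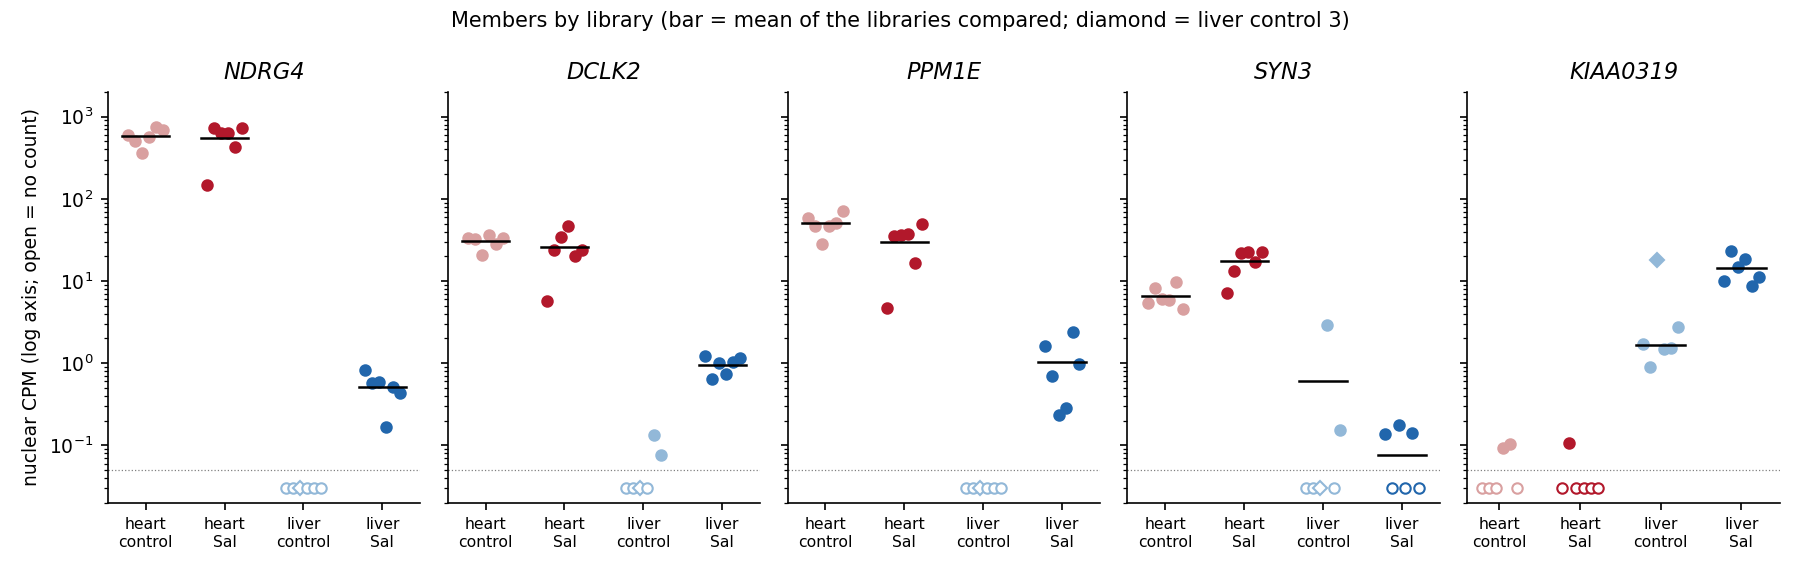
Nuclear CPM of each gene (log axis) in every library, grouped by tissue and diet. Filled points are libraries with a count, open points below the dotted line had none, black bars are group means of at least 0.05 over the libraries compared, and the diamond is liver control 3. NDRG4 and PPM1E had no count in any liver control library and a count in all 6 liver Sal libraries, and liver control 3 lies at 18.3 for KIAA0319, among the liver Sal points.

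Control birds carried NDRG4, DCLK2 and PPM1E in heart and KIAA0319 in liver, and SYN3 was higher in heart than in liver in these libraries without passing the test. NDRG4 had 578 ± 137 nuclear CPM in control heart (SD, n = 6) and no count in any of the 5 control livers. PPM1E had 50.2 ± 14.2 in control heart and likewise no count in control liver. DCLK2 had 30.6 ± 5.60 in control heart and 3 counts in all in control liver, a level of 0.0419 ± 0.0606 (n = 5). For these 3 genes every control heart lay above every control liver.

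By edgeR's quasi-likelihood test of liver against heart in controls, in which a gene was called when its adjusted p did not exceed 0.05 and its log2 fold change reached 1 either way, 4 of the 5 genes were called. Of all genes tested in this comparison 44.3% were called, so a call alone sets no gene apart here. NDRG4, DCLK2 and PPM1E passed the filter on low counts only through heart, and KIAA0319 only through liver. Their calls are to be read with that limit. With a floor of 3 counts per liver library, NDRG4 was at least 2867.5-fold higher in control heart than in control liver (adjusted p = 1.48e-09), and PPM1E at least 249-fold higher (adjusted p = 2.48e-08). DCLK2 fell by 8.24 on the log2 scale from heart to liver (SE 0.57, adjusted p = 3.63e-08). KIAA0319 was higher in liver, with a log2 fold change of 6.14 (SE 0.84, adjusted p = 3.18e-05). The heart controls held only 2 counts of KIAA0319, so its pooled ratio of 44.97 had an exact 95% interval from 12.2 to 375, which covers counting error only.

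SYN3 had 6.64 ± 1.94 nuclear CPM in control heart and 0.609 ± 1.28 in control liver, and was not called (log2 fold change -2.28, SE 1.15, adjusted p = 0.111). Liver control 4 alone held 46 of the 48 SYN3 counts in control liver. Without that library the log2 fold change was -6.27 (adjusted p = 5.11e-05), and with scaling to nuclear totals alone it was -3.41 (adjusted p = 0.0167), so the call of SYN3 turned on 1 library and on the scaling. It was called with replicate number as a block as well (-4.94, adjusted p = 0.0389). In nuclear CPM the levels of all 5 genes did not overlap between control heart and control liver, as for 55.4% of all genes tested. With TMM factors SYN3 did overlap, liver control 4 being at 4.53 scaled CPM and the control hearts at 2.58 to 5.82. The median gene lay at -0.21 in this comparison with TMM factors and at -1.28 with nuclear totals alone, and the log2 fold changes are to be read against those shifts.

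**Figure D2:**
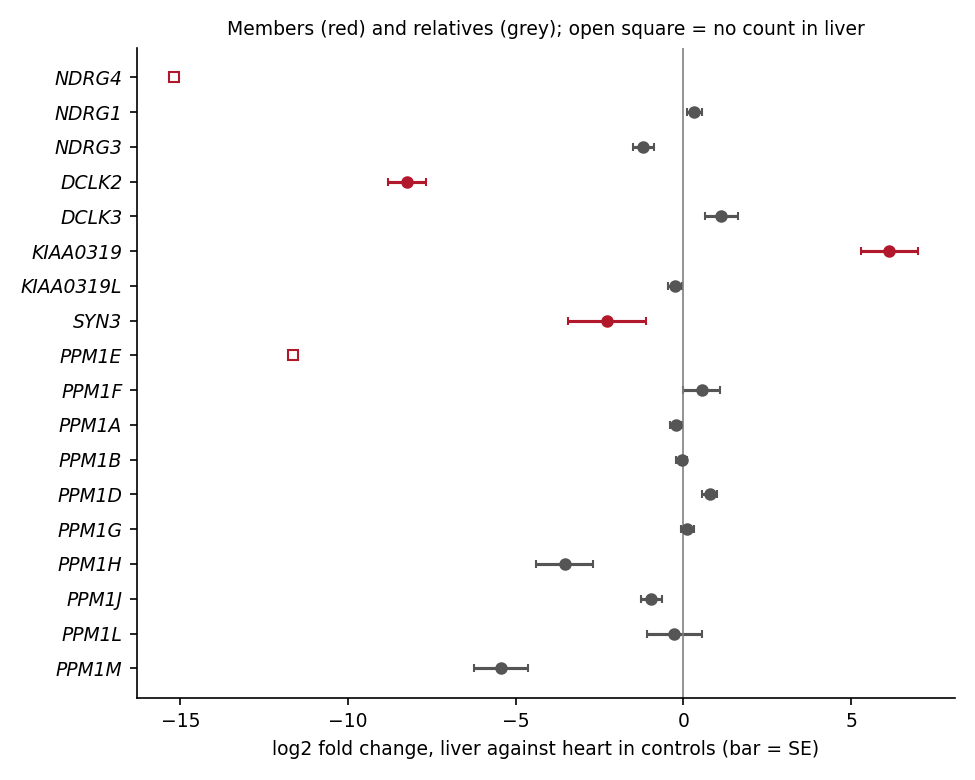
Log2 fold change of liver against heart in control birds (horizontal axis) for the 5 genes in red and the 13 relatives in grey, with bars of 1 SE from edgeR. Open squares mark NDRG4 and PPM1E, whose fitted value depends on the prior count because no control liver compared held a count. KIAA0319 lies at 6.14 and its relative KIAA0319L at -0.25.

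Among close relatives of the 5 genes, PPM1M, another phosphatase of the PPM1 family, was called lower in control liver, at 0.964 ± 1.46 against 83.9 ± 11.3 nuclear CPM in control heart (log2 fold change -5.45, SE 0.81, adjusted p = 6.13e-05). PPM1H, of the same family, was called lower there as well (-3.53, SE 0.85, adjusted p = 0.00309). NDRG3 was also called lower in control liver (log2 fold change -1.19, SE 0.31, adjusted p = 0.00516), while NDRG1, the hypoxia- and stress-responsive member of the family, was not called (0.33, SE 0.24, adjusted p = 0.257). DCLK3 had a log2 fold change of 1.13 (SE 0.50, adjusted p = 0.0694), and KIAA0319L, a broadly expressed membrane protein, one of -0.25 (SE 0.22, adjusted p = 0.345). PPM1F, the phosphatase nearest to PPM1E, had a value of 0.55 (SE 0.55, adjusted p = 0.417). Of the 13 relatives measured, 3 were called, all lower in liver, against 44.3% of all genes tested either way. The median log2 fold change of the 13 was -0.22, against -0.21 over all genes tested. The other 6 listed relatives were not analysed here.

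NDRG4, of the 4 genes higher in heart, had the smallest Sal liver level relative to Sal heart. In the 6 Sal livers its counts were 12, 10, 10, 3, 11 and 8, and in the 5 control livers compared, 0 in each. All 6 Sal livers lay at or above the level of 3 counts and no control liver held a count, so the groups did not overlap. Liver Sal 4, at 0.169 nuclear CPM, lay under the level of 3 counts in the control livers compared, 0.184 to 0.230. The mean of the Sal livers was 0.518 ± 0.212 nuclear CPM (SD, n = 6), at least 2.57-fold above the mean level that 3 counts per control library would give. In heart, NDRG4 ranged from 148 to 729 nuclear CPM with a median of 631 in Sal birds, and from 358 to 747 with a median of 584 in controls. The heart groups overlapped, with heart Sal 1 as the lowest of the 12 hearts. The means were 548 ± 224 and 578 ± 137, and the edgeR log2 fold change was 0.10 (SE 0.21), which turned to -0.08 with nuclear totals alone and to -0.28 with library totals.

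DCLK2, the microtubule-binding kinase, was also counted in all 6 Sal livers. Its counts there were 18, 11, 17, 13, 22 and 21, and in liver control 1, 2, 4, 5 and 6 they were 0, 0, 0, 2 and 1. Every Sal liver lay above every control liver, with 0.636 to 1.22 nuclear CPM against 0 to 0.133. The means were 0.964 ± 0.232 and 0.0419 ± 0.0606, and the ratio of pooled counts was 23.98 (exact 95% interval 7.98 to 118, counting error only). The edgeR log2 fold change was 4.27 (SE 1.03). In heart, DCLK2 ranged from 5.79 to 46.6 nuclear CPM with a median of 24.05 in Sal birds, and from 20.5 to 36.1 with a median of 32.8 in controls. The groups overlapped, with a log2 fold change of -0.10 (SE 0.22) that became 0.02 without heart Sal 1.

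PPM1E, the phosphatase, varied most of the 4 genes with a count in every Sal liver, with a coefficient of variation of 81.3% against 24.1% to 41.01% for the other 3. Its counts there were 24, 12, 4, 5, 51 and 18, against 0 in each of the 5 control livers compared. Liver Sal 5 was highest at 2.41 nuclear CPM and liver Sal 3 lowest at 0.236, and no Sal liver overlapped the controls. The mean was 1.04 ± 0.845 nuclear CPM (SD, n = 6), at least 5.16-fold above the level of 3 counts per control library. In heart, PPM1E ranged from 4.72 to 49.4 with a median of 35.7 in Sal birds and from 27.8 to 70.4 with a median of 48.7 in controls. The heart groups overlapped, with means of 30.0 ± 16.3 and 50.2 ± 14.2 nuclear CPM and a log2 fold change of -0.61 (SE 0.28). Without heart Sal 1 the Sal mean was 35.1 ± 11.8 (n = 5).

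KIAA0319 was the gene with a count in every liver library of both groups. The Sal livers held 149, 406, 254, 324, 186 and 205 counts, and liver control 1, 2, 4, 5 and 6 held 28, 13, 24, 23 and 36. The Sal livers, at 8.78 to 23.5 nuclear CPM, all lay above these controls, at 0.892 to 2.77. The means were 14.5 ± 5.61 (n = 6) and 1.68 ± 0.681 (n = 5), a ratio of 8.60, and the log2 fold change was 3.07 (SE 0.40). The heart libraries held 3 counts in all, 1 each in heart Sal 2, heart control 4 and heart control 5, all under the floor of 3 counts.

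Liver control 3, the shallow library, held 40 counts of KIAA0319, or 18.3 nuclear CPM with an exact 95% interval from 13.1 to 24.9. It lay inside the range of the Sal livers and above every other control liver. With this library included the log2 fold change of KIAA0319 was 2.08 instead of 3.07. For 2 other genes named after their values were seen, the same library lay with the controls. PCK1, the enzyme that commits carbon to gluconeogenesis, was at 402 nuclear CPM there, inside the 161 to 654 of the other controls and above the 0.710 to 5.31 of the Sal livers. GYG2, a glycogenin that primes glycogen synthesis, had no count there or in the other controls, against 25.7 to 57.4 in Sal livers. NDRG4, DCLK2, PPM1E and SYN3 had 0 counts in that library, where 3 counts correspond to 1.37 nuclear CPM. That floor is above the mean of the Sal livers for these genes, so their levels were not detectable at this depth.

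SYN3, the synapsin, was the member that differed in heart. It ranged from 7.12 to 22.5 nuclear CPM with a median of 19.4 in heart Sal and from 4.61 to 9.70 with a median of 5.94 in heart control. Heart Sal 1 was the only Sal heart inside the range of the controls, and the other 5 Sal hearts, from 13.3 upward, lay above all 6. The means were 17.3 ± 6.22 and 6.64 ± 1.94, a ratio of 2.61, and 19.4 ± 4.12 in Sal hearts without heart Sal 1 (n = 5). The log2 fold change was 1.59 (SE 0.23) with TMM factors, under which the groups did not overlap, at 8.69 to 14.8 against 2.58 to 5.82 scaled CPM. It was 1.38 with nuclear totals alone, 1.19 with library totals and 1.62 with replicate number as a block, and met the call with none of these. In liver, SYN3 had 2, 0, 3, 0, 3 and 0 counts in the Sal group and 0, 0, 46, 0 and 2 in liver control 1, 2, 4, 5 and 6. Both liver groups held 3 libraries with no count and overlapped, and liver control 4 stood alone as high.

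The sum of the hepatocyte markers was higher in Sal hearts than in control hearts, at 3260 to 4708 nuclear CPM against 1292 to 2233. The sum was mostly APOA1, the main protein of high-density lipoprotein, which chickens make in many tissues and which was called higher in Sal heart (log2 fold change 1.66, SE 0.33, adjusted p = 0.0242, edgeR), a call lost in 7 of the 12 fits that left out 1 library. Without APOA1 the other 19 hepatocyte markers summed to 62.1 to 201 in Sal hearts and 90.9 to 301 in controls. Of the 12 hepatocyte markers tested in heart, 3 had a log2 fold change above 0, and the median was -0.29.

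Of the members that passed the filter on low counts, the fits called SYN3 between hearts, and DCLK2 and KIAA0319 between livers. DCLK2 passed that filter in liver only through the Sal livers, since its control livers held 0 to 2 counts each. Each of these calls was lost under an alternative, SYN3 in heart as given above, DCLK2 in liver with the block (4.59) and KIAA0319 in liver with liver control 3 included (2.08). In heart 0.994% of all genes tested were called, and in liver 8.36%, and nothing is read from the calls of the members because the contrasts chose the genes. NDRG4, PPM1E and SYN3 did not pass the filter in liver, nor KIAA0319 in heart. The liver groups did not overlap for 4 of the 5 genes, and nothing is read from this either, for the same reason. The share over the genes tested was 8.74%, and NDRG4 and PPM1E were not among those genes. For the difference of the Sal effect between tissues 16.6% of all genes tested were called, and the values of the 5 genes are given as a description, since the contrasts that chose them make it up. The fitted difference, liver minus heart, was 4.40 for DCLK2 (SE 0.61), 3.47 for KIAA0319 (SE 1.45) and -4.71 for SYN3 (SE 1.27) on the log2 scale. It was -0.56 for SYN3 without liver control 4 and -2.64 with the block, so that value turned on 1 library. In these whole-tissue libraries, a change in the number of cells that express a gene and a change in RNA per cell cannot be told apart.

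NDRG4, DCLK2 and PPM1E were genes of the heart that gained a few counts in Sal livers, and genes of heart muscle did so too. The 18 cardiomyocyte markers summed to 80.5 to 139 nuclear CPM in Sal livers and to 15.5 to 69.1 in the control livers compared, the highest being liver control 2. Much of both sums was LDB3, with means of 42.6 in Sal liver and 8.72 in control liver, and MYOM1, with 22.4 and 13.0. These 2 genes had counts in all 5 control livers compared, and MYOM1 was not called. The mean was higher in Sal liver for 16 of the 18, and the share among other genes with few liver counts was not taken. Sal livers held counts of 10918 to 11350 genes, against 9268 to 11055 in the control livers compared. For 6 of the 18 the groups did not overlap. The share without overlap over all genes tested in liver was 8.74%, and markers that failed the filter on low counts were not among those genes. MYL2, the ventricular myosin light chain, was called higher in Sal liver (log2 fold change 5.13, SE 0.93, adjusted p = 0.00438, edgeR), as was LDB3, a Z-disc protein (2.19, SE 0.45, adjusted p = 0.00741). Only 9 of the 18 passed the filter on low counts, and edgeR called 2 of these 9, against 8.36% of all genes tested either way. MYL2 passed that filter only through the Sal livers, with 17 counts in all in the control livers compared. DESeq2, run without that filter, called 8 of the 17 markers it tested, all higher, beside 1346 of all 11550 genes it tested. RYR2, the calcium release channel of heart muscle, and CASQ2, its calcium-binding partner, had no count in control liver and 46 and 50 counts in Sal liver, in all 6 libraries each. PLN, the regulator of the calcium pump, had none in either group. In Sal heart PLN was at only 9.06 nuclear CPM, against 551 for RYR2 and 1109 for CASQ2, so nothing is read from its missing liver counts.

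**Figure D3:**
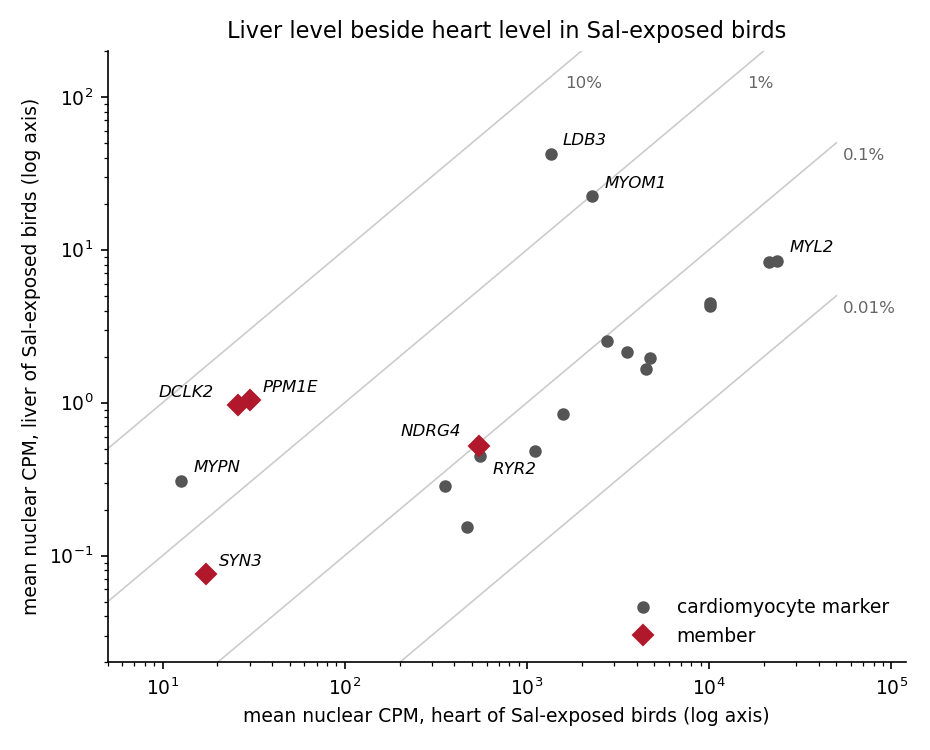
Mean nuclear CPM in Sal liver (vertical) against Sal heart (horizontal), both on log axes, for 4 of the 5 genes (red diamonds) and the 16 cardiomyocyte markers with a count in Sal liver (grey points). Grey lines join points where liver is a fixed percent of heart. NDRG4 lies at 0.0946%, close to RYR2, while DCLK2 at 3.72% and PPM1E at 3.46% lie above every marker, the nearest being LDB3 at 3.16%.

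The share of the heart level found in Sal liver differed between the 3 genes. NDRG4 in Sal liver was at 0.0946% of its level in Sal heart, beside a median of 0.0438% for the cardiomyocyte markers and a range from 0 to 3.16%. DCLK2 was at 3.72% and PPM1E at 3.46%, above all 18 markers. LDB3 (3.16%), MYPN (2.44%) and MYOM1 (0.981%) were the 3 markers above NDRG4. SYN3, which was not higher in Sal liver, was at 0.437%. The table held 158 genes with at least 5 nuclear CPM in control heart and no count in the 5 control livers, NDRG4 and PPM1E among them. Of these, 25 (15.8%) had a count in all 6 Sal livers and 19 had a count in none. In percent of heart, 96 of them lay above NDRG4 and 23 above PPM1E. A count in all 6 Sal livers was thus not particular to these 2 genes.

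The 6 most abundant cardiomyocyte markers, with at least 5000 nuclear CPM each in control heart, were set beside the members liver by liver. Their sum was 0.0861% and 0.0821% of the control heart level in liver Sal 1 and 3, and 0.0174% in liver Sal 5, the lowest of the Sal livers. PPM1E was highest in that same liver Sal 5, at 4.80% of its control heart level, and lowest in liver Sal 3, at 0.470%. NDRG4 was highest in liver Sal 1, at 0.141% from 12 counts, and lowest in liver Sal 4, at 0.0293% from 3 counts. Liver Sal 3, at 0.102%, and liver Sal 2 held 10 counts each, with marker sums of 0.0821% and 0.0243%. Liver Sal 5, with the lowest sum, held 11 counts and was at 0.0899%. The order of NDRG4 among these livers thus rests on few counts, and its relation to the marker sum was not tested. DCLK2 was highest in liver Sal 1, at 4.00%, and next in liver Sal 6, at 3.75%. Liver control 2 had the sum at 0.0288%, above liver Sal 2, 4 and 5, and had no count of NDRG4, DCLK2 or PPM1E, with a floor of 0.206 nuclear CPM. At that share of their control heart levels all 3 genes would lie under this floor, so nothing is read from their missing counts there. The control livers compared held counts of 9268 to 11055 genes and the Sal livers of 10918 to 11350. The part of heart-type RNA in the liver counts of NDRG4, DCLK2 and PPM1E was not tested.

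**Figure D4:**
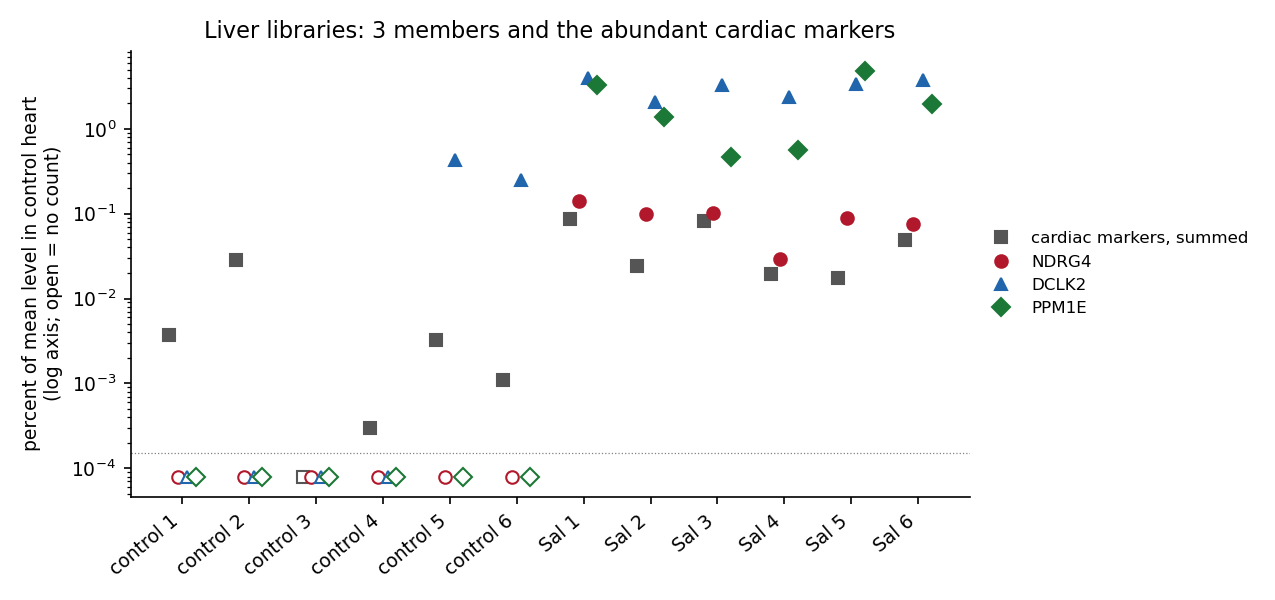
Level in each liver library as a percent of the mean level in control heart (log axis), for NDRG4, DCLK2, PPM1E and the sum of the 6 most abundant cardiomyocyte markers (squares). Open symbols below the dotted line had no count. Liver control 2 has the marker sum at 0.0288% with none of the 3 genes, which at that share of heart would all lie under the floor of 3 counts. Liver Sal 5 has the lowest sum of the Sal livers, 0.0174%, with the highest PPM1E, 4.80%.

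General markers of nerve cells were not called between Sal and control birds by edgeR. The list of 35 neuronal markers matched 17 gene models in the count table. Of these 17, 13 were tested in heart and 8 in liver, and 0 were called in either tissue, with 4 and 1 at an unadjusted p under 0.05. Over all genes tested 0.994% were called in heart and 8.36% in liver, so 0 calls among so few genes is near those shares. DESeq2 called 1 in each tissue, the microtubule protein MAP2 in heart and the granule protein CHGA in liver, both lower in Sal birds. CHGA ranged from 7.84 to 110 nuclear CPM in control livers and from 9.65 to 22.7 in Sal livers, so the groups overlapped. The median log2 fold change of the neuronal markers tested was -0.50 in heart and -0.37 in liver, against 0.01 and 0.03 over all genes tested. The neuronal markers summed to 34.2 to 62.5 nuclear CPM in Sal livers and 38.4 to 154 in control livers, and to 121 to 320 in Sal hearts against 189 to 334 in control hearts. The highest control liver was liver control 1, which was also highest for the enterocyte markers without APOA4. Between control tissues 16 of the neuronal markers were tested, where 44.3% of all genes tested were called. In control birds 9 of the 16 were called lower in liver, among them NCAM1, the neural cell adhesion molecule, and GNAO1, a G-protein subunit abundant in neurons (log2 fold change -9.21, SE 0.58, adjusted p = 1.27e-08). Another 3 were called higher in liver, namely NLGN1, a postsynaptic adhesion protein (5.29, SE 1.03, adjusted p = 0.000620), and the secreted proteins SCG2 (5.01, SE 1.04, adjusted p = 0.00106) and CHGA (4.23, SE 0.56, adjusted p = 2.15e-05).

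Of 31 other synaptic vesicle genes listed, 7 were in the count table, and the rest were not measured here. All 7 were tested in heart and 5 in liver, and 0 were called by edgeR in either, with 1 and 0 at an unadjusted p under 0.05. Over all genes tested 0.994% were called in heart and 8.36% in liver, so these counts cannot show whether SYN3 differed alone. Of the 7, DESeq2 called 0 in heart and SYNGR1 in liver. SNAP25, a fusion protein of the presynaptic membrane, had a log2 fold change of 0.61 in heart (adjusted p = 0.445), and SYT1, the calcium sensor of vesicle fusion, one of -0.22 (adjusted p = 0.722). In control birds 4 of the 7 were called lower in liver, among them SYNGR1, a vesicle membrane protein (-6.19, SE 0.92, adjusted p = 6.33e-05), and SYT11 (-2.98, SE 0.44, adjusted p = 5.53e-05). Between control tissues 44.3% of all genes tested were called. Of the glial markers 0 of 4 were called in heart by edgeR or DESeq2, with 0 at an unadjusted p under 0.05. In liver FABP7, a fatty acid-binding protein, was called lower (-1.58, SE 0.49, adjusted p = 0.0452), a call lost in 8 of 11 fits without 1 library. The single marker of autonomic nerves in the table, the amine-forming enzyme DDC, which liver also expresses, was called higher in Sal liver (1.48, SE 0.41, adjusted p = 0.0267), a call lost in 3 of the 11 fits.

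**Figure D5:**
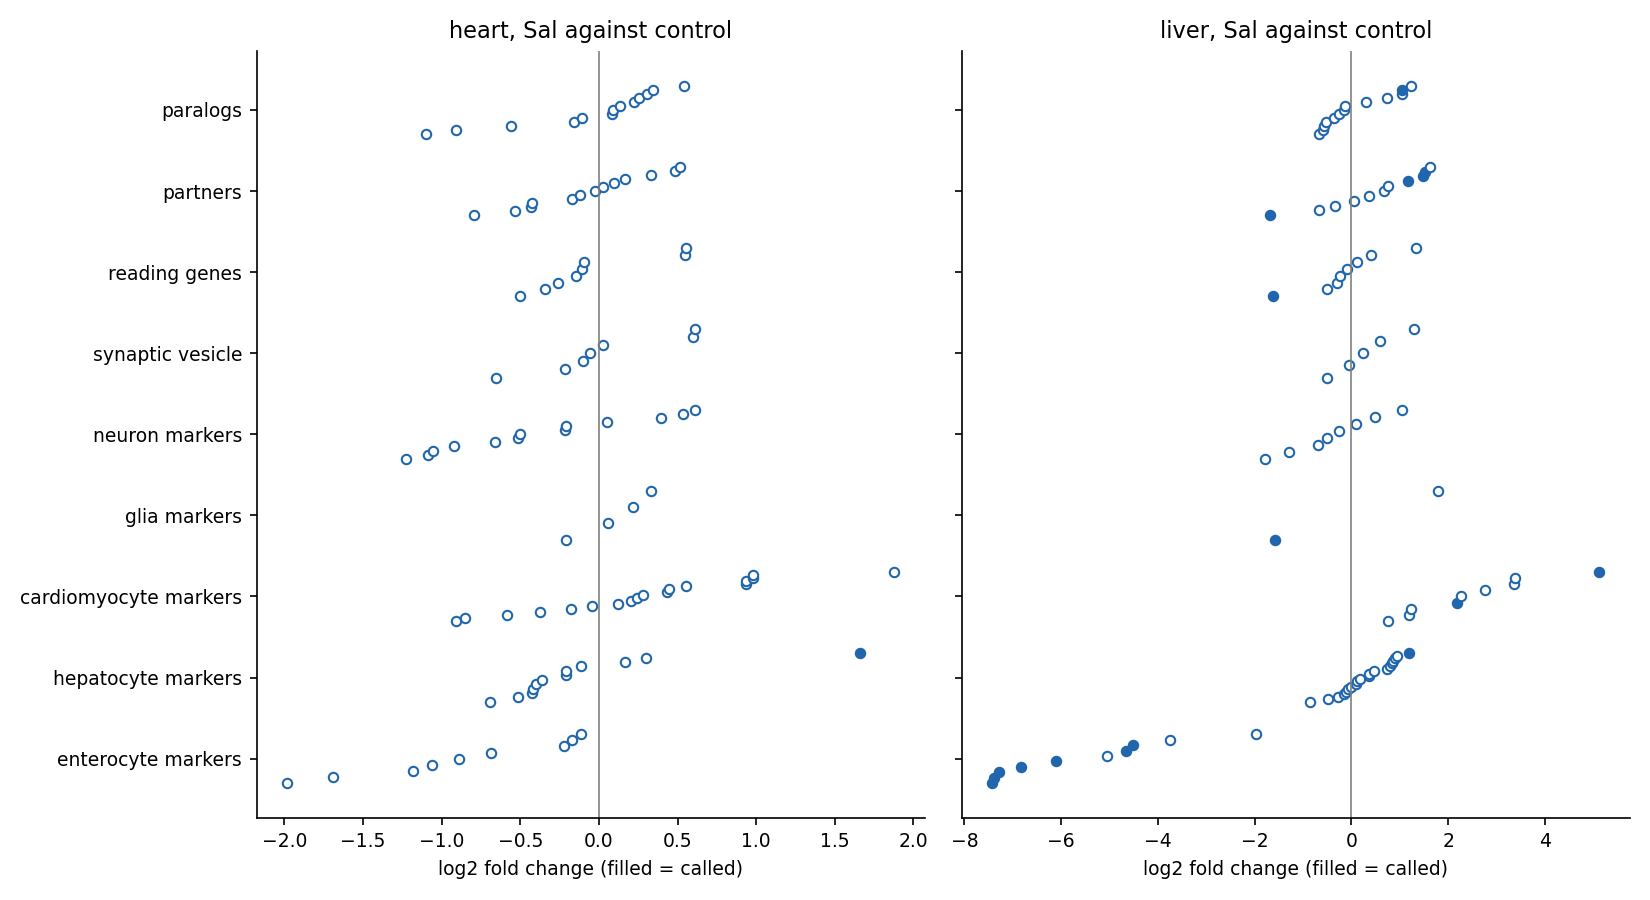
Log2 fold change of Sal against control (horizontal axis) for every tested gene of each list in heart (left) and liver (right), with called genes filled. No neuronal marker or synaptic vesicle gene is filled in either tissue, while MYL2 at 5.13 and LDB3 at 2.19 are the 2 filled cardiomyocyte markers in liver.

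A list of p21-activated kinases, AMPK, calmodulin-dependent kinases and proteins of their complexes or pathways included genes called in liver in both directions. Of 14 in the table, 11 were tested in liver, where 3 were called higher and 1 lower, against 8.36% of all genes tested either way. Their median log2 fold change was 0.68 against 0.03 over all genes tested. CAMKK2, which phosphorylates AMPK and calmodulin-dependent kinases, rose by 1.52 (SE 0.23, adjusted p = 0.00146). ARHGEF6, an exchange factor that binds p21-activated kinases, rose by 1.48 (SE 0.42, adjusted p = 0.0301), and GIT2, a scaffold of the same complex, by 1.17 (SE 0.28, adjusted p = 0.0144). CAMK1D, a calmodulin-dependent kinase, fell by 1.68 on the log2 scale (SE 0.37, adjusted p = 0.0106). CAMKK2 lost its call in 0 of the 11 fits that left out 1 library, GIT2 in 1, CAMK1D in 0 and ARHGEF6 in 5. With liver control 3 included, CAMKK2, GIT2 and ARHGEF6 lost their calls. With replicate number as a block, CAMK1D and ARHGEF6 lost theirs, and ARHGEF6 also did with library totals. In heart 0 of 13 tested were called by edgeR or DESeq2, with 2 at an unadjusted p under 0.05.

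Among the 13 relatives, 1 was called by Sal in liver and 0 in heart, where DESeq2 also called 0 and 2 had an unadjusted p under 0.05. Over all genes tested edgeR called 8.36% in liver and 0.994% in heart, so the counts of calls given here set neither list apart. The relative called in liver was NDRG1, with 125 nuclear CPM in Sal liver and 57.5 in control liver (log2 fold change 1.05, SE 0.23, adjusted p = 0.00908), a call lost in 3 of the 11 fits without 1 library. Of the other genes associated with reading in people, as KIAA0319 is, 8 were tested in each tissue. TDP2, a DNA repair enzyme, was called lower in Sal liver (-1.62, SE 0.47, adjusted p = 0.0349), a call lost in 8 of those 11 fits. In heart 0 were called by edgeR or DESeq2, with 1 at an unadjusted p under 0.05. DCDC2, a doublecortin-domain protein, had a log2 fold change of 1.34 in liver (SE 0.50, adjusted p = 0.0837) and was called by DESeq2.

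Of the gene models beside the 5 on the chromosome, ALDH5A1 and FBXO7 were called in liver, where 8.36% of all genes tested were called. A link between neighbouring genes was not tested. ALDH5A1, which oxidizes succinate semialdehyde in the breakdown of GABA and starts 4.26 kb after KIAA0319, was called higher in Sal liver, at 115 ± 34.5 against 52.6 ± 8.24 nuclear CPM (log2 fold change 1.05, SE 0.21, adjusted p = 0.00657). FBXO7, a ubiquitin ligase subunit that ends 1.92 kb before SYN3, was called higher in Sal liver as well (1.42, SE 0.35, adjusted p = 0.0172), and was not called in heart, where SYN3 differed. ALDH5A1 lost its call in 2 and FBXO7 in 1 of the 11 fits that left out 1 liver library. The other gene models next to the 5 genes were not called by edgeR between Sal and control birds in the tissues where they passed the filter, TRIM37 at 1.89 kb after PPM1E and LRBA at 8.67 kb after DCLK2 among them.

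The genes most like each member over the 23 libraries were found by the root mean square difference of log2 nuclear CPM, each gene centred on its own mean, among 7795 genes with a symbol and a mean count of at least 20. For NDRG4 they were UNC45B, a myosin chaperone (0.38), POPDC2, a cyclic AMP-binding protein of heart (0.47), and MYOT, a Z-disc protein (0.49). For DCLK2 they were KBTBD12 (0.38), CAVIN2, a caveolar coat protein (0.44), and DACH2 (0.47), and for PPM1E, FGD6 (0.37), SEMA3C, a secreted guidance protein (0.45), and ADAMTSL1 (0.53). For KIAA0319 they were TTPA, the vitamin E transfer protein of liver (0.63), IGDCC4 (0.68) and ACSL5, an acyl-CoA synthetase (0.77). TTPA was at 48.1 ± 14.3 nuclear CPM in Sal liver and 12.9 ± 4.29 in control liver. For SYN3 they were ENTREP1 (0.54), TGFB3 (0.58) and LARP6 (0.65). Among the members themselves DCLK2 and PPM1E were the closest pair (0.54), and NDRG4 and KIAA0319 the furthest apart (6.54). The libraries of both tissues entered this measure together.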

How the data were processed

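RNA-seq libraries from 24 turkey heart and liver samples were used. The deposited table holds expected counts per gene, which the authors made with STAR and RSEM after discarding reads shorter than 36 bases or of quality below 20, on the Turkey_5.1 genome with Ensembl genes. Values were whole numbers, with 0 exceptions. The sources used here do not say whether strand was used. Of 36 count columns, 12 matched no sample label and were not used, nor were the authors' DESeq2 fold changes and p-values. Symbols came with 4985 genes, and 3509 were taken from RefSeq (same assembly, at least 50% overlap).

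Counts were fitted with edgeR 4.0.16 (R 4.3.3) using TMM factors, filterByExpr, a robust quasi-likelihood test and a prior count of 0.125, separately for heart (12 libraries), liver (11), control tissues (11) and all (23), with Benjamini-Hochberg adjustment over all genes tested. The fits were tested on simulated data. Nothing says whether replicates were from separate pens, so p-values measure the spread between these samples. Intervals and floors (3 counts) cover counting error only. Alternatives were DESeq2 1.42.0, sva 3.50.0, other scalings, no filter, a replicate block, and each library left out. Same-numbered heart and liver libraries had deviations that correlated between -0.39 and 0.19, and the numbers were not taken as pairs. The labels do not say whether such libraries share a bird, and these correlations cannot settle it. The fits of control tissues and of all libraries treated heart and liver samples as independent, although they may come from the same birds. Genes and lists were chosen with earlier results of these data known. The genes named were the 5 members, their close relatives, up to 3 called genes per list, direction and comparison with the largest change and a mean count of at least 20, the 3 genes most like each member, and neighbouring genes. Others named beside a result were chosen after their values were seen.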

Additional observations from a re-analysis of the deposited data

Results flagged for a closer look

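In all, 5 of the 42 groups tested for a library far from the others had 1. No rate by chance is set beside this, since some groups are near 0 counts and the groups share libraries. SYN3 in liver control 4 was at 2.89 nuclear CPM with the other 4 control livers at 0 to 0.154. KIAA0319 in heart Sal 2 was at 0.106 nuclear CPM, which is 1 count beside 5 libraries with none. The summed cardiomyocyte markers were at 102628 nuclear CPM in heart control 3 and at 69.1 in liver control 2, and the summed neuronal markers were at 154 in liver control 1.

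The fitted difference of the Sal effect between liver and heart met the threshold of the fit for 4 of the 5 genes, and is given only as a description, since it is made of the contrasts that chose them. On the log2 scale, liver minus heart, it was 6.07 for NDRG4, 4.40 for DCLK2, 7.73 for PPM1E and -4.71 for SYN3. The values for NDRG4 and PPM1E depend on the prior count, since their control livers held no count, and that for SYN3 was -0.56 without liver control 4 and -2.64 with replicate number as a block.

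KIAA0319 was at 18.3 nuclear CPM in liver control 3, a library outside the comparisons, while the other control livers lay at 0.892 to 2.77.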

How the results depend on the processing

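The calls of NDRG4, DCLK2, PPM1E and KIAA0319 between control tissues held under every alternative that could be run. KIAA0319 did not pass the filter when mitochondrial genes were left out. NDRG4, DCLK2 and PPM1E passed the filter only through heart, and KIAA0319 only through liver. With few or no counts in the other tissue such calls could hardly be lost, so nothing is read from their holding. The same control libraries also entered the contrasts that chose the genes. SYN3 was called between control tissues with nuclear totals alone (-3.41, chosen after seeing the data), and leaving out 1 library gave -6.27 to -1.95. Genes called in heart numbered 102, and 185 with library totals, 59 with nuclear totals alone, 313 by DESeq2 and 330 with surrogate variables, with 53 to 145 when 1 library was left out. In liver they numbered 858, and 1346 by DESeq2, 2642 with surrogate variables and 264 with liver control 3, with 507 to 1269 when 1 library was left out (507 without liver Sal 2). For the difference of effects they numbered 1851, and 1048 with nuclear totals alone and 1125 with liver control 3. Between control tissues they numbered 4776 and, with nuclear totals alone, 6753, of which 16.3% were higher in liver, against 42.9%. The share called higher in liver by Sal was 63.1%, and 76.4% with library totals. For the difference of effects it was 57.8%, and 93.4% with library totals and 76.1% with nuclear totals alone. Replicate number was also fitted as a block, although nothing says that the numbers pair the samples. With it 30 genes were called in heart, 560 in liver and 1063 for the difference. SYN3 between tissues was then called, at -4.94 (adjusted p = 0.0389, edgeR).

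NDRG4 in heart turned to -0.28 with library totals and to -0.0782 with nuclear totals alone, and DCLK2 in heart to 0.0221 without heart Sal 1. As CPM of all counts, the mean level in heart Sal and heart control was 158 and 192 for NDRG4, 6.60 and 10.1 for DCLK2, 4.90 and 2.14 for SYN3 and 8.44 and 16.5 for PPM1E, and DCLK2 was at 0.665 in liver Sal. With TMM factors, heart control was at 358 for NDRG4, 19.0 for DCLK2, 4.22 for SYN3 and 30.8 for PPM1E. Liver Sal was then at 0.743 for NDRG4, 1.41 for DCLK2 and 21.9 for KIAA0319, whose liver control was at 2.48. The cause of these changes was not tested. Liver depth limits counts under 3 per library, or 0.142 to 0.230 nuclear CPM. NDRG1 and PPM1F between control tissues turned to -0.77 and -0.54 with nuclear totals alone. Of the 12 other genes named as called in liver, 5 kept the call with liver control 3 included, 6 with the block, 8 with library totals, 10 with surrogate variables, 12 by DESeq2, and 6 to 12 when 1 library was left out. With a pseudocount of 1, 1 of the 3 most alike genes was shared for DCLK2, SYN3 and PPM1E.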
